A study of Caenorhabditis elegans with 21 samples.

Results

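The histone genes of *C. elegans* were followed through early embryos and through RNA that co-purified with the oocyte protein OMA-1. Members were all genes whose symbol is his- followed by a number, which gave 72 genes of the 47420 in the deposited files. Of these, 6 are variant genes, namely the linker histone gene *his-24* (H1) and the H3.3-type genes *his-69*, *his-70*, *his-71*, *his-72* and *his-74*. The other 66 were taken as replication-dependent genes, and how their mRNAs end was not tested. The replication-dependent genes comprise 17 H2A, 16 H2B, 15 H3 and 16 H4 genes, sorted by the length of their coding sequence. The remaining pair, *his-39* and *his-73*, are short gene models of no core length. All 72 genes are in the embryo tables and 70 are in the RIP and input files, where *his-40* and *his-73* are not listed.

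Histones H3 and H4 together with H2A and H2B form the nucleosome core, and H1 binds the linker DNA between nucleosomes. In animals, replication-dependent histone mRNAs are made in S phase and end in a stem-loop instead of a poly(A) tail, and in *C. elegans* the stem-loop binding protein CDL-1 and the Argonaute CSR-1 are needed for their proper expression. Variant H3.3 mRNAs are polyadenylated and their protein enters chromatin outside of replication, while early embryos divide rapidly on a supply of maternal histone.

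The embryo experiment compared early embryos of 3 genotypes, each with 2 libraries, all from early young adults raised at 25°C and collected by bleaching. These were the wild type N2 (libraries A1 and A2), the gain-of-function mutant *oma-1(zu405)*, which carries P240L in OMA-1 (C1 and C2), and the suppressed double mutant *fzy-1(D433N);oma-1(zu405)* (D1 and D3), in which the APC/C activator FZY-1/Cdc20 is also mutated. The RIP experiment used frozen young adults, also raised at 25°C, 100000 per sample, of 3 knock-in strains that carry GFP on OMA-1 at its own locus, and in each strain RNA bound by GFP nanobody beads was sequenced beside input RNA in 2 libraries each. The strains were *oma-1-gfp*, *oma-1ts-gfp* with P240L (the P240L strain hereafter), and *fzy-1;oma-1ts-gfp* with P240L and *fzy-1* D433N (the *fzy-1* P240L strain). RIP was done from whole animals, so germline and somatic RNA were mixed, and no strain without GFP was analysed here. The labels do not say which samples came from separate cultures, so the p-values measure the spread between these libraries, which may be technical. In bulk RNA, fewer cells of a type and less RNA per cell cannot be told apart.

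Embryo libraries held between 3599426 and 18815357 counts. Library D1 stood apart from D3, its partner in the double mutant, with 5.93% of its counts on ribosomal RNA genes against 0.0439% in D3, 0.324 to 0.387% in N2 and 0.744 to 1.03% in *oma-1(zu405)*. Of 15 early zygotic marker genes, 13 to 15 were above 0 in each embryo library, and sperm markers made up at most 0.000167% of counts. Summed over 8 maternal and oocyte markers, N2 had 0.137 and 0.143% of its counts there, D1 0.155%, D3 0.173%, and the *oma-1(zu405)* libraries 0.523 and 0.52%. The summed muscle markers ran the other way, with 0.162 and 0.18% in N2 and 0.0386 and 0.0437% in *oma-1(zu405)*. Muscle markers took 0.0119% of counts in D1 against 0.13% in D3, and 6 intestine markers 0.00189% against 0.0179%. Both sums moved between N2 and *oma-1(zu405)* together with the histone genes, and their part in those results was not tested. Adult inputs held all 8 maternal markers, and their sperm markers differed between strains, as given with the inputs.

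The members lie on all 6 chromosomes in the WBcel235 annotation, matched by gene identifier. The replication-dependent genes are mostly clustered, with 67 of the 72 members in 14 groups whose neighbours lie within 5000 bases. The largest cluster holds 13 genes on chromosome II (13817760 to 13828697). The annotation gives exon sequence beyond the coding part to only 8 members, which are *his-24*, *his-35*, *his-37*, *his-41*, *his-57*, *his-71*, *his-72* and *his-74*. It also gives 14 symbols to 36 replication-dependent genes of matching coding length, such as *his-47* for *his-47*, *his-57* and *his-65*. Reads of such copies may not be assigned to one gene. In embryos, 34 members stayed under 10 counts in every library, and 30 of these were copies that share a symbol. In the RIP files 30 of the 36 copies passed the filter, so levels of copies cannot be compared between the experiments, and sister copies are not independent of each other.

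In N2 embryos *his-72* and *his-24* were the most abundant histone mRNAs per annotated length. The mean levels of the variants in normalized CPM (read counts scaled to library size with TMM) per kilobase were 1046 for *his-72*, 778.2 for *his-24*, 113.2 for *his-71* and 58.1 for *his-74*. The highest core genes were *his-35* of H2A at 102.4, *his-37* of H4 at 94.4, *his-41* of H2B at 76 and *his-32* of H3 at 31.2 CPM per kilobase. The first 3 of these lie side by side on chromosome V (9544659 to 9547607) and are among the 8 genes with annotated exon sequence outside the coding part. The other core genes tested lay between 0.438 (*his-57*) and 22.4 (*his-60*, H4) on that scale. Both *his-69* and *his-70* had at most 3 counts in any embryo library.

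The first comparison asked how the transcriptome of *oma-1(zu405)* embryos differed from that of N2 embryos. Histone mRNAs were upregulated in *oma-1(zu405)* embryos across all 4 core classes, the linker H1 and H3.3, and none was downregulated. The filter of at least 10 counts in at least 2 libraries left 33 members, of which 28 were higher past both thresholds (edgeR quasi-likelihood test, Benjamini-Hochberg adjusted p under 0.05 and log2 fold change over 2). The same call was made for 11.6% of all 12520 genes tested, and 22.6% of all genes were called lower. Members that passed through the mutant libraries alone had to differ, so the count was also taken over the 25 members with at least 10 counts in both N2 libraries. Of these, 21 were higher, against 10.9% of the 12104 genes with that N2 depth. Their median log2 difference was 3.11, and that of all such genes was -0.32.

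*his-74*, an H3.3-type gene, showed the largest change. Its normalized level was 39.6 and 27.8 CPM in N2 and 2109 and 1476 CPM in *oma-1(zu405)*. The *oma-1(zu405)* libraries lay far above both N2 libraries, with a log2 difference of 5.65 ± 0.22 (SE, n = 2 and 2, adjusted p = 2.52e-18). The most abundant H3.3 gene, *his-72*, had 643.8 and 691 CPM in N2 and 4970 and 5198 CPM in the mutant (log2 difference 2.84 ± 0.17, adjusted p = 4.21e-15). *his-24*, the linker histone gene, had 553.6 and 883 CPM in N2 and 4924 and 6568 CPM in the mutant (log2 difference 2.89 ± 0.20, adjusted p = 9.44e-14). In both, the lowest mutant library lay above the highest N2 library. The other abundant H3.3 gene, *his-71*, had 68.8 and 65 CPM in N2 against 258.8 and 243.9 CPM, a log2 difference of 1.83 ± 0.15 (adjusted p = 6.58e-12) that lay under the fold threshold. As single genes the variants took most of the histone counts, and the 6 together made up 0.226 and 0.291% of N2 counts against 0.859 and 0.913% of *oma-1(zu405)* counts. The 66 genes taken as replication-dependent together made up 0.033 and 0.0337% of N2 counts against 0.0849 and 0.0698%. In A1, *his-35*, *his-37* and *his-41* gave 1789, 1344 and 1137 of their 6200 counts. How RNA was selected is not given, and its part in these shares was not tested. Ribosomal RNA took 0.324 to 0.387% of counts in N2 and 0.744 to 1.03% in the mutant. The snoRNA share ran the other way, at 0.0291 and 0.0268% against 0.0161 and 0.0123%.

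Among replication-dependent genes the largest changes were in *his-68* (H2A) and *his-40* (H3). *his-68* had 3.56 and 5.37 CPM in N2 and 99.7 and 65.7 CPM in the mutant, a log2 difference of 4.26 ± 0.25 (adjusted p = 3.13e-15). *his-40* had 1.87 and 1.34 CPM in N2 and 32.1 and 36.8 CPM in the mutant, a log2 difference of 4.25 ± 0.26 (adjusted p = 1.3e-14). For both genes the groups of libraries did not overlap. At an unadjusted p under 0.05 in edgeR and any fold, 33 of 33 members differed, against 78.5% of all genes. How many of all genes had separate libraries was not counted. The highest H3 gene, *his-32*, went from 12.4 and 13.2 to 128.5 and 125.5 CPM (log2 difference 3.24 ± 0.18). By class, 7 of 7 tested H3 genes, 7 of 9 H4 genes, 5 of 6 H2A genes and 5 of 6 H2B genes were higher. The class medians of the log2 difference were 3.43 for H3, 3.06 for H4, 2.83 for H2B and 2.60 for H2A.

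**Figure D1:**
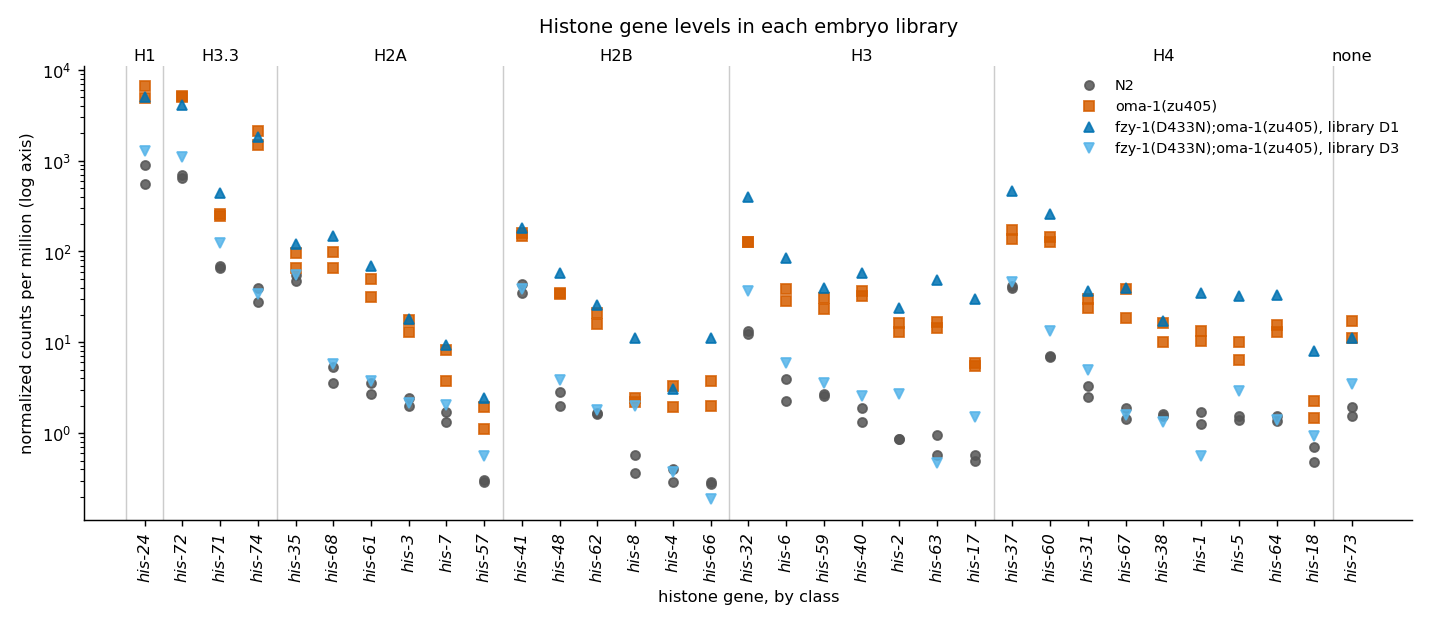
Level of the 33 tested histone genes (x axis, by class) in normalized CPM on a log axis, 1 point per embryo library. Squares are *oma-1(zu405)* and circles N2, and the gap runs from *his-35* with the smallest to *his-74* with 2109 and 1476 against 39.6 and 27.8. The double mutant libraries D1 and D3 (triangles) separate.

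The 5 members that were tested and did not pass the fold threshold were *his-71*, *his-18* and the 3 neighbours *his-35*, *his-41* and *his-37*. *his-35* had 54.9 and 47.2 CPM in N2 and 96.5 and 66.1 CPM in the mutant, a log2 difference of 0.64 ± 0.18. *his-41* had 34.9 and 43.4 against 159 and 147.7 CPM (1.90 ± 0.17), and *his-37* had 41.2 and 39.8 against 173.8 and 137.7 CPM (1.88 ± 0.17). These 3 core genes were the highest of their classes in N2, and together with *his-71* they make up 4 of the 5 members under the threshold. Other clusters moved further. The 4 genes *his-1* to *his-4* on chromosome V (16040144 to 16042831) had log2 differences of 2.59 to 3.98, and *his-59* to *his-62* on chromosome IV (7485834 to 7488659) of 3.3 to 4.22. The neighbours *his-67* and *his-68* on chromosome I had 4.07 and 4.26, and the pair *his-38* and *his-40* on chromosome X had 3.11 and 4.25. The 13 genes of the chromosome II cluster could not be tested at these counts.

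Scaling set how large these differences were. TMM normalization placed the median of all tested genes at -0.24, and scaling by total counts placed it at -1.51. DESeq2 called 26 of 33 members higher and 0 lower, against 11.5% and 21.2% of all genes. Under total counts 14 of 33 were higher and 0 lower, against 2.4% and 40.7% of all genes, the median of the members was 1.80, and *his-35* turned to -0.63. When all 6 embryo libraries shared 1 estimate of the spread, 0 of 33 members and 0% of all genes were called. At an unadjusted p under 0.05 there were 24 members and 42.9% of all genes in that fit.

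Fewer of the genes around histone supply passed. Among 11 variant and linker genes outside the his- names, 6 of 10 tested were higher, including the linker genes *hil-4* (log2 difference 3.63 ± 0.17) and *hil-5* (3.5 ± 0.17), the H2A variant gene *htz-1* (2.57 ± 0.17) and the centromeric H3 gene *cpar-1* (2.64 ± 0.32). Of 18 genes for histone mRNA processing, chaperones and assembly, 5 were higher and none lower, with a list median of 1.20. These 5 were *cdl-1*, which encodes the stem-loop binding protein (2.19 ± 0.16), *csr-1* (2.02 ± 0.18), the H3-H4 chaperone genes *asfl-1* (2.77 ± 0.17) and *unc-85* (2.27 ± 0.15), and the H2A-H2B chaperone gene *nap-1* (2.35 ± 0.15). *hira-1*, whose product deposits H3.3, had -0.23 ± 0.19, and *xnp-1* had -0.11 ± 0.15. Of 18 DNA replication genes 7 were higher, among them *pcn-1* (PCNA) at 3.33 ± 0.17 and *rpa-2* (single-strand binding) at 3.42 ± 0.16, with a list median of 1.80. Of the 8 maternal and oocyte markers 7 were higher, with a median of 3.17.

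The double mutant asked whether *fzy-1(D433N)* shifted these levels back. Histone mRNAs did not give 1 answer, and the 2 libraries of the double mutant lay far apart. For the 33 genes, the median difference from the N2 mean on the log2(CPM + 1) scale was 3.48 in D1 and 0.29 in D3, while it was 2.73 in C1 and 2.52 in C2. In D1 all 33 genes lay above the N2 mean by more than 1, against 3220 of all 12520 genes. In D3 the number was 3 of 33, against 223 of all 12520 genes. Over all 12520 genes the medians were -0.41 in D1 and -0.03 in D3. D1 thus had the highest histone median on the TMM scale. As a share of total counts, the 72 genes took 0.616% in D1 against 0.944 and 0.982% in *oma-1(zu405)*. The 66 replication-dependent genes took 0.104% in D1 against 0.0849 and 0.0698%, and the 6 variants 0.512% against 0.859 and 0.913%. D1 also had the lowest muscle (0.0119%) and intestine (0.00189%) marker sums of the 6 libraries and the highest ribosomal RNA share (5.93%). The part of these markers and of ribosomal RNA in the gap between D1 and D3 was not tested.

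**Figure D2:**
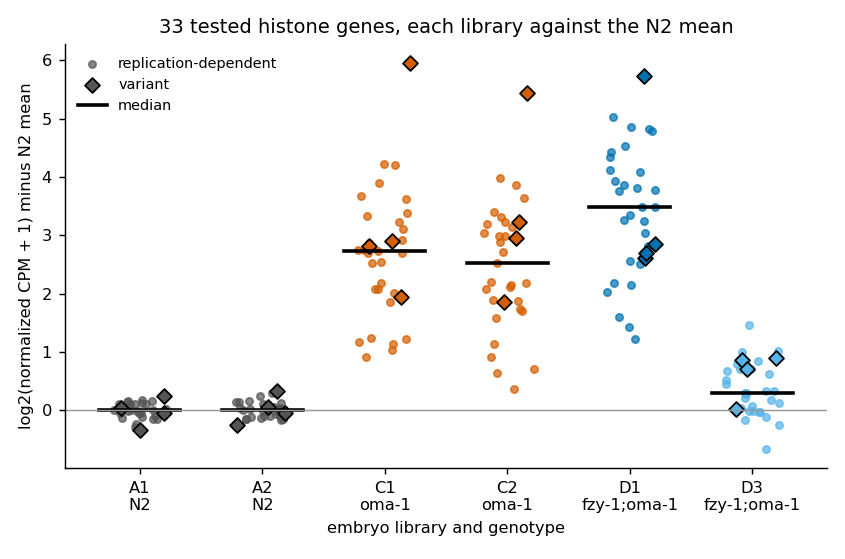
Difference of each of the 33 tested histone genes from its N2 mean on the log2(normalized CPM + 1) scale (y axis) in the 6 embryo libraries (x axis), with the median as a bar and variant genes as diamonds. D1 has the highest median (3.48), D3 one near the N2 mean (0.29), and C1 and C2 lie at 2.73 and 2.52.

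*his-74* had 1804 CPM in D1 and 33.7 CPM in D3, against 39.6 and 27.8 CPM in N2. *his-72* had 4093 and 1093 CPM and *his-24* 5024 and 1268 CPM in D1 and D3. For *his-74* the D3 value thus lay between the N2 libraries, whereas for *his-72* and *his-24* it lay above both N2 libraries and below both *oma-1(zu405)* libraries. *his-32* had 399.1 CPM in D1 and 37.1 CPM in D3. *his-35* had 120.3 and 55.3, *his-41* 180.1 and 38.6, and *his-37* 462.7 and 46.1 CPM, with each D1 value above and each D3 value below both *oma-1(zu405)* libraries. H3 and H4 genes in D1 had class sums of 708.2 and 924.2 CPM against at most 268.4 and 440.7 CPM in *oma-1(zu405)*. For H2A and H2B the D1 sums were 381.3 and 290.6 CPM against at most 277.4 and 216.9 CPM. These class sums are TMM-scaled, and the low factor of D1 (0.4503, against 0.7004 and 0.6767 in *oma-1(zu405)*) raises its values.

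Against N2, 30 members were tested in the double mutant and 0 were called higher or lower (0% of 12684 genes in either direction). At an unadjusted p under 0.05 and the same fold, 9 of 30 members were higher, against 2.07% of all genes, and 0 were lower, against 1.32%. DESeq2 called 12 of 30 members higher and 0 lower, against 2.92% and 0.118% of all genes. *his-32* had the log2 difference 4.01 ± 1.25 (adjusted p = 0.643) and *his-74* 4.69 ± 1.95 (adjusted p = 0.643), with errors several times those of *oma-1(zu405)*. Without library D3, 29 of 30 members were called higher and 0 lower (15.2% and 22.3% of all genes), with the remaining library taken to vary as N2 does. Without library D1, 1 of 29 was higher and 0 were lower (0.714% and 1.55%). Against *oma-1(zu405)*, 33 members were tested and 0 were called, with 0 at an unadjusted p under 0.05 and the same fold (4.71% of all genes higher and 0.697% lower) and 0 by DESeq2 (0.22% and 0.0191%). Their median log2 difference was 0.01, and that of all genes was 0.22. Scaled by total counts these medians were -0.42 and 0.53. Without D1, 19 of 31 members were lower than in *oma-1(zu405)* and 0 higher (8.17% and 10.4% of all genes). Without D3, 7 of 33 were higher and 0 lower (11.6% and 6.95%). The direction against *oma-1(zu405)* therefore turned on which library was kept. Since both comparisons share the double mutant libraries, they are not separate evidence.

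RIP against input asked which mRNAs co-purified with OMA-1. In *oma-1-gfp*, H2A and H3 genes were the most enriched histone mRNAs, some H2A and H4 genes were depleted, and no variant gene was called. The deposited RPKM values were compared on the log2(RPKM + 1) scale with limma, with an adjusted p under 0.05 and a log2 difference over 1. This scale understates changes of low genes. Of 54 members tested, 9 were enriched and 6 depleted, against 9.12% and 19.4% of all 9743 genes. The median over members was -0.09 and over all genes -0.37.

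*his-47*, an H2A gene, was the most enriched. It had 1.58 and 1.86 RPKM in input and 40.9 and 34 RPKM in RIP, a log2 difference of 3.82 ± 0.27 (adjusted p = 9.4e-05). Its copies followed, with *his-65* at 2.27 and 1.94 against 22.2 and 19 RPKM (2.80 ± 0.27) and *his-57* at 2.57 and 2.54 against 20.1 and 14.2 RPKM (2.33 ± 0.29). These 3 genes share a symbol and may share reads. Summed, they had 6.42 and 6.33 RPKM in input and 83.2 and 67.2 RPKM in RIP. The 4 enriched H3 genes, *his-42*, *his-13*, *his-9* and *his-25*, all lie in the chromosome II cluster. *his-42*, which has a symbol of its own, had 0.706 RPKM in 1 input and was listed at 0 in the other, with 8.82 and 6.03 RPKM in RIP (2.67 ± 0.33). The 2 enriched H2B genes were *his-41*, with 73.2 and 55.6 against 226.1 and 151.5 RPKM (1.52 ± 0.32), and *his-62*, with 7.27 and 7.80 against 25.2 and 20.5 RPKM (1.48 ± 0.27).

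Depleted members came from H2A and H4. *his-19* (H2A) had 6.80 and 7.76 RPKM in input and 0.913 and 0.717 RPKM in RIP (-2.19 ± 0.26). *his-50* and *his-28*, H4 genes of 1 shared symbol, went from 21.8 and 17.5 to 4.50 and 4.42 RPKM (-1.91 ± 0.27) and from 22.3 and 15.4 to 5.62 and 5.08 RPKM (-1.63 ± 0.29). In each of these the RIP libraries lay below both inputs. The other 3 were *his-38*, *his-43* and *his-53*, at -1.35, -1.32 and -1.17. No abundant variant was called. *his-72* had 460.9 and 471 RPKM in input and 797.4 and 626.9 in RIP (0.60 ± 0.35, adjusted p = 0.191), and *his-24* had 511.2 and 459.4 against 804.6 and 558.6 RPKM (0.47 ± 0.36, adjusted p = 0.319). In both, the RIP libraries lay above both inputs. *his-74* had 253.5 and 232.4 against 228.9 and 225.5 RPKM (-0.09 ± 0.30). The number of depleted members was 2 without input replicate 1 or 2 (8.48% or 7.96% of all genes) and 10 without RIP replicate 1 (24.8%).

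**Figure D3:**
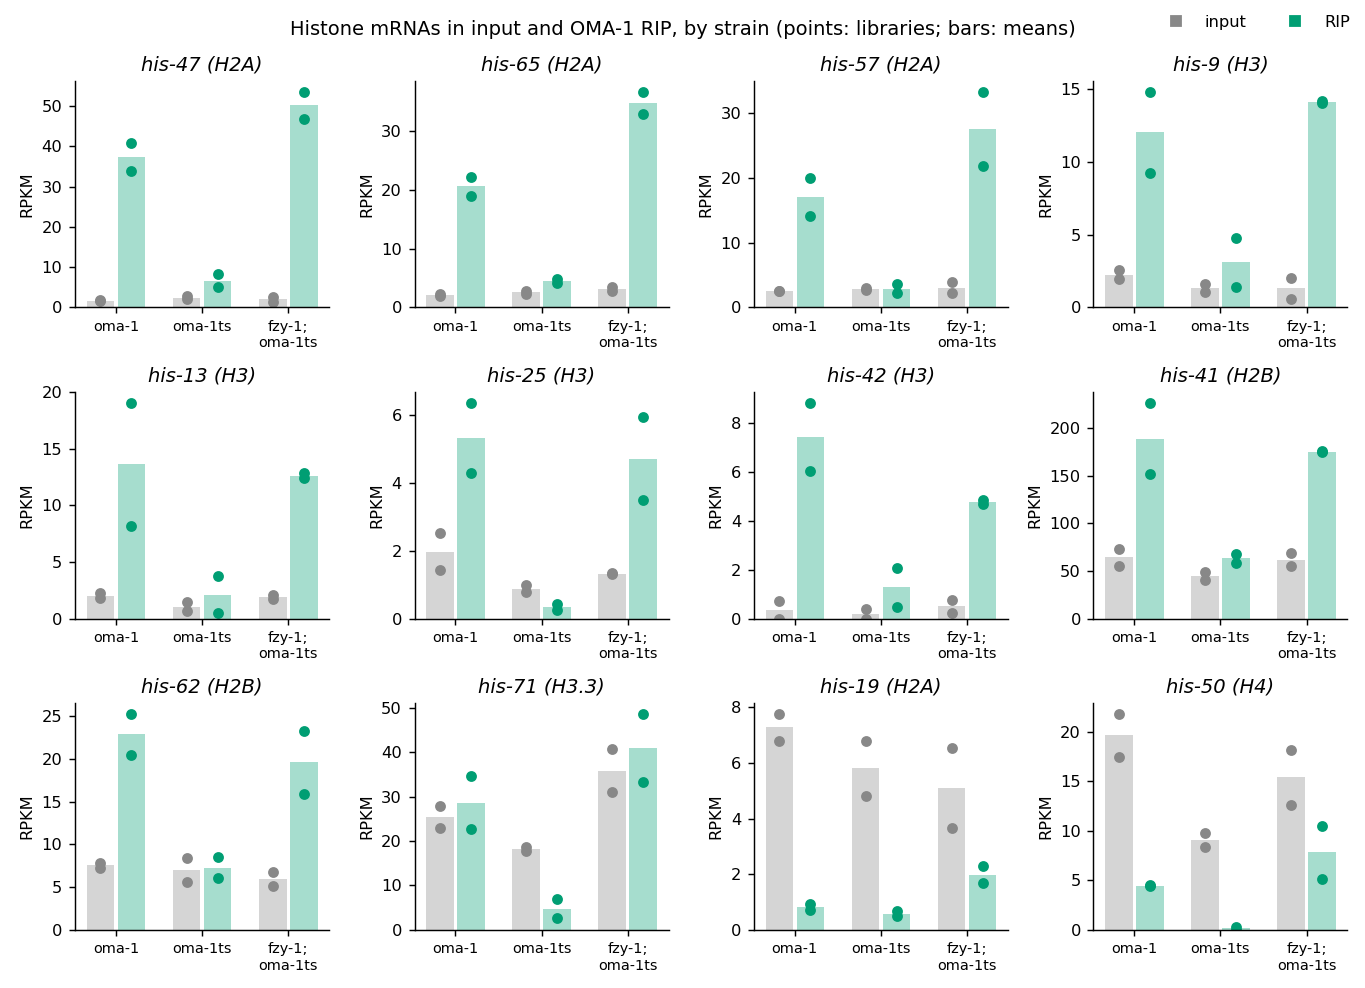
RPKM (y axis, from 0) of 12 histone genes in input (grey) and RIP (green) of the 3 strains (x axis), with libraries as points and their means as bars. *his-47* has 40.9 and 34 RPKM in the *oma-1-gfp* RIP, 5.02 and 8.19 in the P240L RIP and 46.8 and 53.5 in the *fzy-1* P240L RIP, over inputs between 1.47 and 2.73.

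In the P240L strain a single histone mRNA was enriched, while H2A, H2B and H4 genes and *his-71* were depleted. Of 48 members tested, 1 was enriched and 17 were depleted, against 6.32% and 21.2% of all 9761 genes. *his-47* was the enriched gene, with 2.14 and 2.73 RPKM in input and 5.02 and 8.19 RPKM in RIP (1.12 ± 0.27, adjusted p = 0.00985). *his-50* was the most depleted, with 9.78 and 8.36 RPKM in input, listed at 0 in 1 RIP library and at 0.275 RPKM in the other (-3.15 ± 0.24, adjusted p = 8.05e-05). *his-53* (H2A) had 7.72 and 7.24 against 0.247 and 1.56 RPKM (-2.24 ± 0.34), and *his-19* had 6.78 and 4.82 against 0.495 and 0.67 RPKM (-2.09 ± 0.25). Of the 17, 5 are H2A, 4 H2B, 7 H4 and 1 is the H3.3 gene *his-71*. The 4 H2B genes were the copies *his-20*, *his-22*, *his-52* and *his-54*, which share a symbol. The H2A genes *his-53* and *his-19* also share a symbol with each other. *his-71* had 17.7 and 18.8 RPKM in input and 2.54 and 7.03 RPKM in RIP (-1.85 ± 0.35). When each library was centred on its median, which moved the median of all genes from -0.34 to 0.03, 11 members were depleted (11.1% of all genes). With input replicate 2 left out the count was 4 of 34 tested (17.1% of all genes), and with input replicate 1 left out 8 of 36 (17.7%).

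In the *fzy-1* P240L strain 9 of 52 members were enriched and 5 depleted, against 9.14% and 21% of all 10849 genes. The 9 enriched members were *his-47*, *his-65*, *his-57*, *his-9*, *his-13*, *his-42*, *his-62*, *his-41* and *his-25*, and all 9 were also enriched in *oma-1-gfp*, which shares no library with this strain. Over all genes, 83.9% of those enriched in *oma-1-gfp* and 75.2% of those enriched here were enriched in both. The 9 include sister copies that may share reads. Of the 6 and 5 depleted members 2 were shared, against 79% and 65.5% over all genes. *his-47* had 1.47 and 2.56 RPKM in input and 46.8 and 53.5 RPKM in RIP (4.11 ± 0.30, adjusted p = 7.8e-05). *his-65* had 2.86 and 3.42 against 32.8 and 36.7 RPKM (3.11 ± 0.27), and *his-57* 2.25 and 3.91 against 21.8 and 33.4 RPKM (2.81 ± 0.33). For each of these copies both RIP libraries lay above both of those in *oma-1-gfp*. *his-9* followed at 2.78 ± 0.35, with 0.573 and 2.05 against 14.2 and 14 RPKM. The depleted members were all H2A, namely *his-21* (-1.47 ± 0.52), *his-51* (-1.37 ± 0.27), *his-53* (-1.29 ± 0.28), *his-19* (-1.0 ± 0.32) and *his-35* (-1.13 ± 0.31). All of these except *his-35* are copies that share a symbol and may share reads. *his-21* had 2.91 RPKM in 1 RIP library and 0 in the other. After median centring 13 members were enriched and 0 depleted, against 14.7% and 9.49% of all genes. Leaving out input replicate 1 or 2 left 0 depleted members (7.77% or 6.73% of all genes), leaving out RIP replicate 1 gave 8 (24%) and leaving out RIP replicate 2 gave 2 (21.5%).

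The difference in enrichment between strains was tested in 1 fit of the 12 libraries. Against *oma-1-gfp*, enrichment in the P240L strain was lower for 7 of 59 members and higher for 0, against 3.87% and 1.26% of all 11736 genes. At an unadjusted p under 0.05 and the same fold, 21 members were lower and 1 was higher (8.74% and 4.23% of all genes). The 3 largest were the H2A copies *his-47* (-2.70 ± 0.37, adjusted p = 0.00243), *his-57* (-2.33 ± 0.42) and *his-65* (-2.17 ± 0.29). *his-71* fell by 2.00 ± 0.50 (adjusted p = 0.0416), and the others were *his-22*, *his-25* and *his-66*. Between the *fzy-1* P240L strain and the P240L strain, enrichment was higher for 11 members and lower for 1, against 5.86% and 3.6% of all genes. These included *his-47* (2.99 ± 0.37, adjusted p = 9e-04), *his-57* (2.81 ± 0.42), *his-65* (2.48 ± 0.29), *his-50* (2.21 ± 0.43) and *his-71* (2.03 ± 0.50). Both differences share the 4 P240L libraries, so a high or low value there enters both with opposite sign. Between the *fzy-1* P240L strain and *oma-1-gfp*, a comparison added after the data were seen, 0 of 59 members differed (0.00852% of all genes higher and 0.0767% lower), with 2 higher and 0 lower at an unadjusted p under 0.05 and the same fold (0.809% and 1.76% of all genes). *his-47* differed by 0.29 and *his-57* by 0.48 in that comparison.

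**Figure D4:**
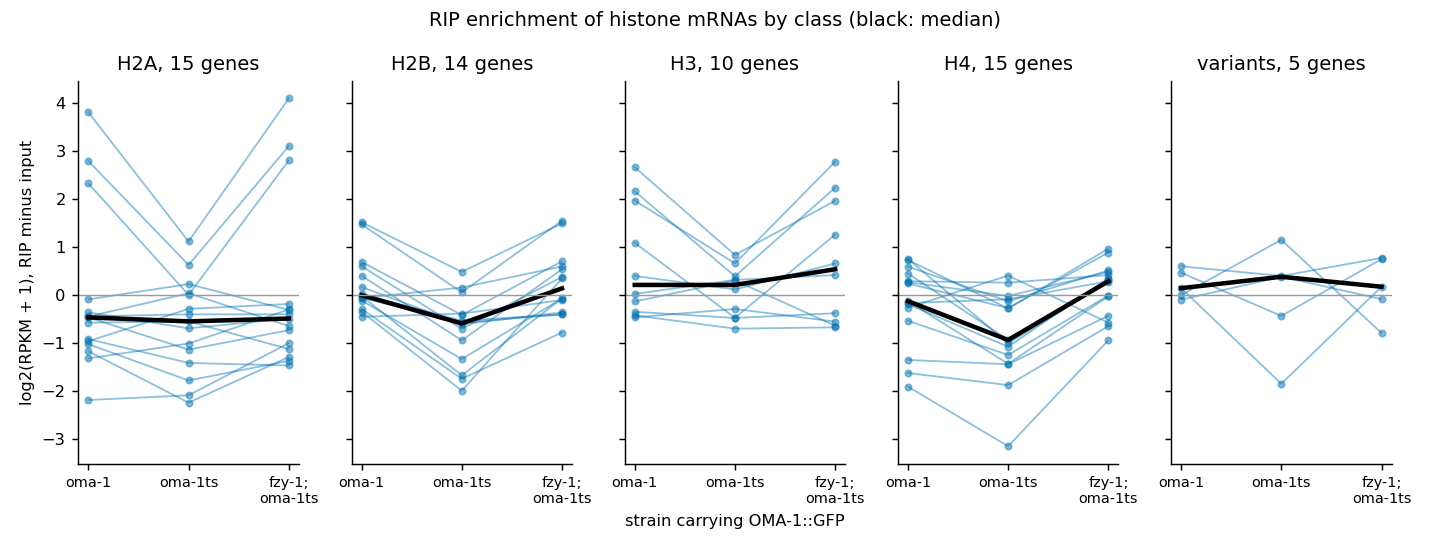
RIP minus input on the log2(RPKM + 1) scale (y axis) in the 3 strains (x axis) for the 59 histone genes tested, 1 line per gene and the class median in black. *his-47* runs from 3.82 to 1.12 to 4.11 at the top of H2A, and *his-50* from -1.91 to -3.15 to -0.94 at the bottom of H4.

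By class, and with no test between classes, the medians of the P240L difference were -1.17 for 14 H2B genes, -0.71 for 15 H4 genes, -0.33 for 15 H2A genes and -0.28 for 10 H3 genes, beside -0.03 for all genes. Ranges overlapped widely, from -1.66 to 0.22 for H2B and from -2.70 to 0.68 for H2A, and 11 of the 16 H2B genes are copies that share a symbol. For the *fzy-1* P240L strain against the P240L strain they were 1.05, 1.23, 0.40 and 0.32, again beside -0.03. The 30 copies that share a symbol had medians of -1.15 and 1.13, and the 29 genes with a symbol of their own had -0.20 and 0.38. Of the variant and linker genes outside the his- names, *hil-5* was called in these differences, at -2.73 ± 0.38 and 2.75 ± 0.38, and none of the 18 histone supply genes or the 17 DNA replication genes tested was. Somatic markers also moved in the P240L RIP libraries. The sum of 6 intestine markers there was 263 and 294 RPKM over inputs of 1220 and 1290, against 1230 and 948 over 1590 and 1570 in *oma-1-gfp* and 958 and 885 over 1790 and 2110 in the *fzy-1* P240L strain. Summed hypodermis markers were 228 and 283 RPKM in the P240L RIP over inputs of 867 and 918, against 482 and 295 over 716 and 755 in *oma-1-gfp* and 411 and 336 over 749 and 690 in the *fzy-1* P240L strain. The sum of 6 muscle markers ran the other way, at 1030 and 804 RPKM over inputs of 760 and 761, against 586 and 451 over 694 and 669 in *oma-1-gfp* and 457 and 435 over 664 and 565 in the *fzy-1* P240L strain, although 5 of the 6 were depleted in the P240L RIP. In the differences between strains, *vit-3*, *vit-5* and *vit-6* (vitellogenins) and *tnt-2* and *unc-54* (muscle) were called lower in P240L against *oma-1-gfp*, and higher in the *fzy-1* P240L strain against P240L. The part of these shifts in the histone results was not tested.

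The inputs asked whether adult levels differed before RIP. Few histone mRNAs did, and the clearest was *his-24*. It had 511.2 and 459.4 RPKM in *oma-1-gfp*, 186.7 and 201.9 RPKM in the P240L strain and 504.7 and 392.8 RPKM in the *fzy-1* P240L strain. The P240L libraries lay below all others, with log2 differences of -1.32 ± 0.19 against *oma-1-gfp* (adjusted p = 0.00725) and 1.19 ± 0.19 for the *fzy-1* P240L strain against it (adjusted p = 0.00566). The H4 gene *his-28* followed the same order, with 22.3 and 15.4, then 6.90 and 6.75, then 17.4 and 15.3 RPKM (-1.32 ± 0.19 and 1.15 ± 0.19). Its copy *his-50* was also lower in P240L (-1.03 ± 0.21). *his-46*, another H4 gene, ran the other way with 3.91 and 3.49, 10.7 and 11.1, and 3.02 and 5.41 RPKM (1.34 ± 0.24 and -1.22 ± 0.24). The H4 genes thus differed in sign among themselves.

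In the P240L input against *oma-1-gfp*, 1 of 56 members was higher and 4 were lower (3.72% and 2.38% of all 10946 genes), the fourth being *his-10*. In the *fzy-1* P240L input against *oma-1-gfp*, 2 were higher and 0 lower (5.06% and 0.594% of all genes, with 0 lower and 0.767% of all genes at an unadjusted p under 0.05 and the same fold). In the *fzy-1* P240L input against the P240L input, 3 were higher and 4 lower (7.99% and 2.49%), the latter with *his-22* (-1.18 ± 0.25) and *his-20* (-1.12 ± 0.30), H2B copies, and *his-56*, a copy of *his-46*. After median centring the last of these comparisons gave 1 higher and 5 lower (5.34% and 4.28% of all genes), and the second gave 2 higher and 1 lower (3.8% and 1.24%). Leaving out either input of the P240L strain or *oma-1-gfp* input 1 brought the 4 lower members of the first comparison to 0 (0.699% to 1.09% of all genes), and leaving out *oma-1-gfp* input 2 to 1 (1.04%). The linker genes *hil-3*, *hil-6* and *hil-7* were also lower in the P240L input, at -1.29 ± 0.23, -1.17 ± 0.28 and -2.87 ± 0.30.

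*his-70*, an H3.3-type gene, was listed at 0 in all 4 inputs of *oma-1-gfp* and the P240L strain, and had 3.49 and 2.55 RPKM in the *fzy-1* P240L inputs. Its log2 difference was 2.00 ± 0.20 against either strain (adjusted p = 9.64e-04 and 0.00106). The 6 sperm markers were also highest in the *fzy-1* P240L strain, with sums of 395 and 197 RPKM. Their sums were 8.6 and 6.02 RPKM in *oma-1-gfp* and 47.3 and 44.9 in the P240L strain. All 6 were higher in the *fzy-1* P240L strain against either strain. Their part in the *his-70* level was not tested. In RIP, *his-70* had 0 RPKM in both *oma-1-gfp* libraries and 0.703 and 1.91 RPKM in the P240L strain. In the *fzy-1* P240L strain *his-70* had 1.97 and 0.79 RPKM in RIP, which overlapped the P240L RIP values while the inputs did not overlap. Its enrichment was the 1 called lower in the *fzy-1* P240L strain than in the P240L strain (-1.94 ± 0.42, adjusted p = 0.0157). *his-32* (H3) rose from 2.73 and 3.31 to 8.05 and 9.02 RPKM between *oma-1-gfp* and *fzy-1* P240L inputs (1.25 ± 0.19).

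**Figure D5:**
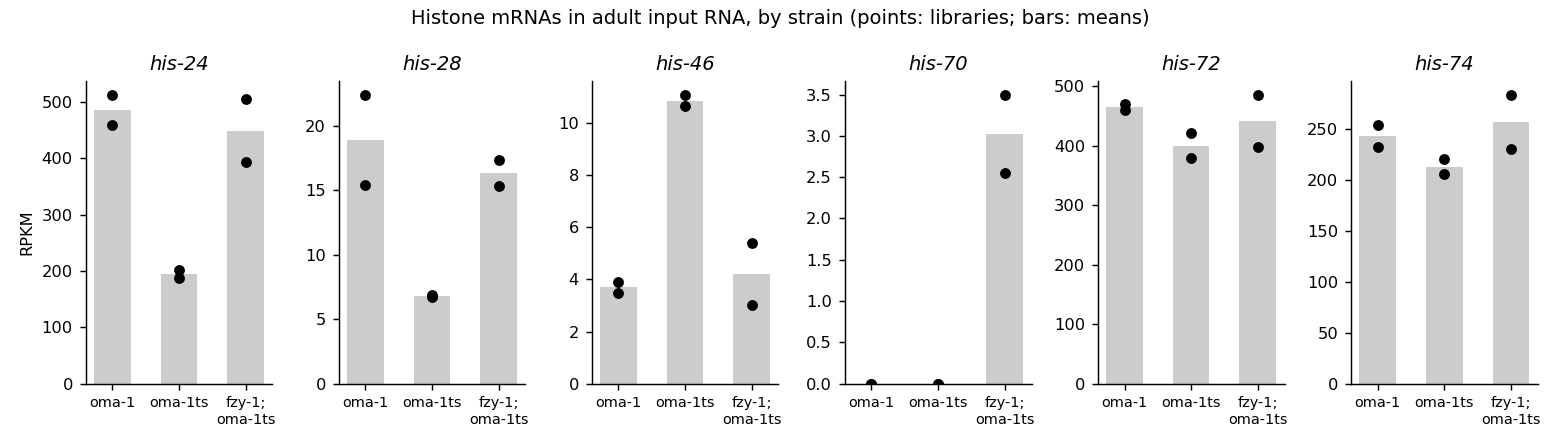
RPKM (y axis, from 0) of 6 histone genes in adult input RNA of the 3 strains (x axis), with libraries as points and means as bars. *his-24* is at 186.7 and 201.9 in the P240L strain against 392.8 to 511.2 elsewhere, *his-70* is above 0 only in the *fzy-1* P240L inputs, and for *his-72* and *his-74* the *oma-1-gfp* and *fzy-1* P240L libraries overlap.

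No change between inputs was called for the other abundant variants. *his-72* had 460.9 and 471, 420.8 and 378.7, and 484.6 and 398 RPKM, and *his-74* had 253.5 and 232.4, 220.2 and 205.9, and 282.9 and 230.4 RPKM. Their log2 differences lay for *his-72* between -0.22 and 0.14 and for *his-74* between -0.19 and 0.26, with standard errors of 0.17 to 0.18. Summed over the 66 replication-dependent genes, inputs held 472.6 and 409.8, 404.5 and 396.5, and 459.7 and 384.2 RPKM, with the P240L values inside the range of the *fzy-1* P240L strain, which overlaps that of *oma-1-gfp*. *his-37* alone gave 158.3 and 109.4 of the RPKM in *oma-1-gfp*.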

How the data were processed

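The labels list 21 samples, from mRNA-seq of embryos and from RIP-seq with inputs in adults. Per the labels and the study's methods, reads were aligned with HISAT2 (version 2.0.5 in the submitters' processing notes) and counted with HTSeq (0.6.0), and the authors deposited whole read counts per gene for embryos. The genome build, poly(A) or ribosomal selection and strand of counting are not given in the sources used here. For RIP and input the authors deposited RPKM values, which lie on a scale about 1000 times larger and were divided by 1000, an inference from the sums of RPKM times gene length, which then came to 29.3 to 41.6% of what RPKM over all reads would give. Genes absent from a file were set to 0. The deposited comparison columns, which hold the authors' ratios and p-values, were not used, and neither were another 32 columns with values of single samples. The embryo tables hold 2 columns per genotype where the labels list 3 samples, and the columns carry no label number, so each is a replicate of its genotype only.

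Histone genes were identified through WBGene identifiers in the WBcel235 annotation. Where that annotation gives 1 symbol to several genes, symbols of their own were taken from RefSeq entries at the same coordinates. Core classes were set by coding length (H2A 381, H2B 366 or 369, H3 408, H4 309 bases) where a match of proteins had been planned, since no protein table was used here.

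Embryo counts were tested with edgeR 4.0.16 (TMM, quasi-likelihood, 1 fit for each 2 genotypes, at least 10 counts in at least 2 libraries) and normalized CPM are TMM-scaled over the 6 libraries. RPKM were tested with limma 3.58.1 with trend on log2(RPKM + 1), keeping genes that reached 1 RPKM in 2 or more libraries. RPKM depth is unknown, so no counting interval is given. p-values were adjusted over all genes tested (Benjamini-Hochberg). R was 4.3.3, DESeq2 1.42.0 and Python 3.11.15. Fits were tested on simulated data. Named genes are the variants, the highest gene of each core class in N2 per length, and in each comparison the 3 largest changes per direction among called members with separate libraries, and others named were chosen after their values were seen. The members, lists and tests were chosen with earlier results of these data known. Alternatives were other scalings, filters, pseudocounts, DESeq2, 1 fit of all embryo libraries, a replicate block and leaving out each library. The point mutations cannot be checked in gene-level values.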

Additional observations from a re-analysis of the deposited data

Results flagged for a closer look

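The enrichment of some members in RIP differed between strains by a test of the difference itself (limma, adjusted p under 0.05, log2 difference over 1). For P240L against *oma-1-gfp* these were *his-22* (-1.65), *his-25* (-1.57), *his-47* (-2.70), *his-57* (-2.33), *his-65* (-2.17), *his-66* (-1.35) and *his-71* (-2.0). For the *fzy-1* P240L strain against the P240L strain they were *his-9* (2.12), *his-18* (1.42), *his-22* (2.35), *his-25* (1.74), *his-47* (2.99), *his-50* (2.21), *his-57* (2.81), *his-62* (1.5), *his-65* (2.48), *his-66* (1.48), *his-70* (-1.94) and *his-71* (2.03). Both tests share the P240L libraries.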

How the results depend on the processing

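With 2 libraries per group, single libraries decided several counts. In embryos, members called higher in *oma-1(zu405)* numbered 14 with total counts, 0 with all libraries in 1 fit and 22 to 29 when 1 library was left out. For the double mutant against N2 they numbered 12 with DESeq2, 17 of 58 without a filter and 0 to 29 when 1 library was left out, and against *oma-1(zu405)* leaving out 1 library gave 0 to 7 higher and 0 to 19 lower. *his-35* reversed to -0.63 with total counts. The cause was not tested. Where a group was left with 1 library, that library was taken to vary like the other groups.

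In RIP, leaving out 1 library gave 2 to 10 depleted members in *oma-1-gfp*, 0 to 3 enriched and 4 to 18 depleted in P240L, and 0 to 8 depleted in the *fzy-1* P240L strain. Without a filter, P240L had 2 enriched and the *fzy-1* P240L strain 3 depleted, and with median centring they had 11 and 0 depleted. For the P240L difference, 1 member was higher with a pseudocount of 0.1, 4 were lower without a filter, and 2 to 9 were lower when 1 library was left out. For the *fzy-1* P240L difference, 6 were higher without a filter, and 5 to 15 higher and 0 to 1 lower when 1 library was left out.

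In inputs, leaving out 1 library gave 0 to 1 higher and 0 to 5 lower for P240L against *oma-1-gfp*, 1 to 3 higher and 0 to 3 lower for the *fzy-1* P240L strain against *oma-1-gfp*, and 2 to 6 higher and 0 to 4 lower for it against P240L. Without a filter 2 were lower in the first and 2 in the last of these, and with median centring 1 was lower in the second and 1 higher in the last.

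The same-numbered RIP and input libraries correlated in their deviations at r = 0.0843, 0.0695 and 0.291, so the numbers were not taken to pair them. With a replicate block the members enriched and depleted numbered 9 and 7 in *oma-1-gfp*, the P240L difference had 10 lower members and the *fzy-1* P240L difference 12 higher, and no count moved by over 1.5 times. No paired analysis was possible because, in the embryo comparisons only, no label links a library name such as A2 to a replicate number.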
